A study of Kluyveromyces lactis with 8 samples.

Results

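FBP1, PCK1, ICL1, SFC1 and GUT2 are 5 genes of Kluyveromyces lactis that carry carbon from acetate, organic acids and glycerol back towards sugar, and they are 5 of the 5076 genes measured. GUT2 was taken by its identifier KLLA0A00418g, and the other 4 by their symbols in the RefSeq gene table of the species, joined to the data by locus tag. All 5 were selected on their FPKM levels and their differences between the strains of this study. These values are therefore given as a description, without a test.

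K. lactis is the milk yeast, a relative of Saccharomyces cerevisiae that relies more on respiration. Gluconeogenesis runs glycolysis backwards and needs enzymes of its own at the steps that glycolysis cannot reverse, and the glyoxylate cycle supplies it with organic acids made from acetyl units. In S. cerevisiae such genes are held low by glucose and switched on by Cat8, Sip4 and Adr1 under the kinase Snf1 when glucose runs out. In K. lactis, PCK1 and FBP1 are known to be activated without Cat8.

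Transcripts were measured by RNA-seq in 4 strains with 2 libraries each: sir2∆ (LRY2850), sir4∆ (LRY3096), sum1∆ (LRY3098) and WT (LRY2835). Every strain, WT included, was MATa and lacked both silent mating-type loci, HML and HMR, and each genotype was a single strain. Sir2 is a histone deacetylase, Sir4 is its partner in silencing, and Sum1 is a DNA-binding repressor. All cultures grew in glucose-rich YPD medium at 30 °C and were collected in early log phase at an optical density of 1, so the 5 genes were read in cells given glucose. The series calls the 2 libraries of a strain technical replicates, so the SDs below and the p-values of other genes describe the spread between libraries, not between cultures.

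Levels are FPKM, fragments per kilobase of transcript scaled to library depth, which are per length and can be set side by side between genes. Depth was not in the deposited tables, and the steps between low values gave an estimate of 10.1 to 26.3 M reads per library (M, mega). Both sum1∆ libraries, at 21.8 and 26.3 M, were deep and both sir4∆ libraries, at 10.6 and 11.5 M, shallow, while sir2∆ and WT held one of each. SUM1 was at 0 FPKM in both sum1∆ libraries, against 31.2 and 28.0 FPKM in WT. KLLA0F14663g, which has no symbol, stood at 0.0513 and 0 FPKM in sir2∆, against 73.2 and 71.0 FPKM in WT. No symbol in the table is SIR2 or SIR4, and the sir4∆ label was not checked against its gene.

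The 5 genes differed widely in level under glucose. In WT, FBP1 averaged 405 FPKM and GUT2 366 FPKM, at the 89.0th and 87.9th percentiles of all genes. PCK1 averaged 205 FPKM and SFC1 111 FPKM, at the 78.6th and 65.6th percentiles. ICL1 averaged 8.36 FPKM, at the 5.56th percentile. The estimated number of reads behind a single value was 1465 or more for FBP1, 2126 or more for PCK1, 3160 or more for GUT2 and 213 or more for SFC1. For ICL1 it was 95 in the lowest case, sir4∆ replicate 1, which gives a counting error of 10.3%.

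**Figure D1:**
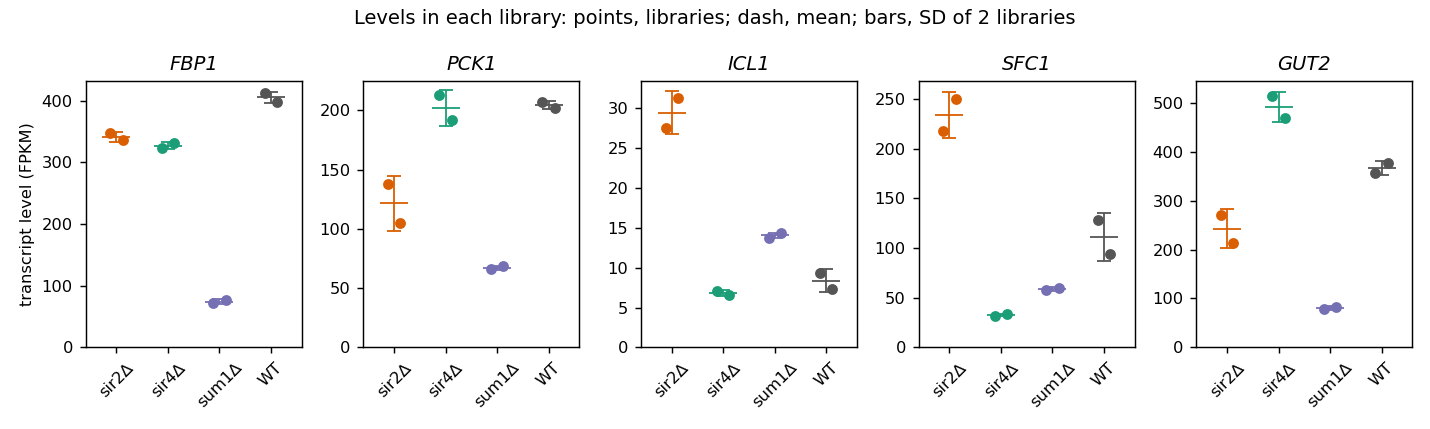
Transcript level in FPKM of the 5 genes in each of the 8 libraries, on linear axes that start at 0 and differ between genes. Points are libraries, dashes are means and bars are the SD of 2 libraries. FBP1, PCK1 and GUT2 have their lowest points in sum1∆, while ICL1 and SFC1 have their highest in sir2∆ and their lowest in sir4∆.

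FBP1 (KLLA0E01211g, chromosome E) encodes fructose-1,6-bisphosphatase, which removes a phosphate at the step that phosphofructokinase drives in glycolysis. Its level was 347 and 336 FPKM in sir2∆, 323 and 331 FPKM in sir4∆, 71.8 and 76.7 FPKM in sum1∆, and 412 and 398 FPKM in WT. The sum1∆ libraries lay far below the other 6, and the ranges of the 4 strains did not overlap. The mean was 74.2 ± 3.50 FPKM in sum1∆ against 405 ± 9.45 FPKM in WT (SD, n = 2), 5.46-fold lower in sum1∆, and the difference on the log2(FPKM + 1) scale was -2.43. The sir2∆ mean was 0.843 of the WT mean and the sir4∆ mean 0.807 of it. The gap of 14.7 FPKM between sir2∆ and sir4∆ compares with a pooled SD of 6.86 FPKM. In bulk RNA of this kind, fewer cells with the transcript and less of it per cell cannot be told apart.

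PCK1 (KLLA0A00484g, chromosome A) encodes phosphoenolpyruvate carboxykinase, which turns oxaloacetate into phosphoenolpyruvate and so opens the path to sugar. The sir2∆ libraries held 138 and 105 FPKM of it, with 213 and 192 FPKM in sir4∆, 65.9 and 68.5 FPKM in sum1∆, and 207 and 202 FPKM in WT. The 2 WT values fell between the 2 sir4∆ values, so these strains could not be ordered. Means were 67.2 ± 1.84 FPKM in sum1∆ and 205 ± 3.40 FPKM in WT (SD, n = 2), 3.04-fold lower in sum1∆, a log2 difference of -1.59. The sir2∆ libraries lay between, with a mean of 122 ± 23.4 FPKM, 1.68-fold lower than WT. These sir2∆ libraries also spread most: the log2 difference from WT, -0.76, was -0.95 without sir2∆ replicate 1 and -0.56 without sir2∆ replicate 2.

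GUT2 (KLLA0A00418g, chromosome A) encodes the mitochondrial glycerol-3-phosphate dehydrogenase, which oxidises glycerol phosphate to dihydroxyacetone phosphate and passes the electrons to the respiratory chain. The sir2∆ libraries had 271 and 214 FPKM, the sir4∆ libraries 513 and 469.7 FPKM, the sum1∆ libraries 77.6 and 82.7 FPKM, and the WT libraries 356 and 377 FPKM. The strains ran from sir4∆, the highest, through WT and sir2∆ to sum1∆, with no overlap between any pair of neighbours. GUT2 averaged 80.1 ± 3.64 FPKM in sum1∆ against 366 ± 14.8 FPKM in WT (SD, n = 2), 4.57-fold lower in sum1∆, with a log2 difference of -2.18. Its difference in sir2∆ was -0.60, and its difference in sir4∆ was 0.42. Between the extremes, the sum1∆ mean was 6.13-fold lower than the sir4∆ mean of 491 ± 30.6 FPKM.

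ICL1 (KLLA0C08107g, chromosome C) encodes isocitrate lyase, the enzyme that splits isocitrate into succinate and glyoxylate and defines the glyoxylate cycle. Its level was 27.6 and 31.3 FPKM in sir2∆, 7.12 and 6.55 FPKM in sir4∆, 13.8 and 14.3 FPKM in sum1∆, and 9.37 and 7.35 FPKM in WT. The sir2∆ libraries were the highest and the sum1∆ libraries next, and both strains lay above the WT range. ICL1 averaged 29.4 ± 2.68 FPKM in sir2∆ and 8.36 ± 1.43 FPKM in WT (SD, n = 2), 3.52-fold higher in sir2∆, a log2 difference of 1.71. The sum1∆ mean was 14.0 ± 0.366 FPKM, 1.68-fold the WT mean. Its log2 difference from WT, 0.69, came to 0.29 after quantile normalization. In sir4∆ the gap to WT was 1.52 FPKM, with a pooled SD of 1.05 FPKM.

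SFC1 (KLLA0F03212g, chromosome F) encodes the carrier that brings succinate into mitochondria in exchange for fumarate, which links the glyoxylate cycle in the cytosol to the citric acid cycle. There were 218 and 250.1 FPKM in sir2∆, 31.9 and 33.2 FPKM in sir4∆, 57.7 and 60.2 FPKM in sum1∆, and 129 and 94.0 FPKM in WT. All 4 ranges were separate, with sir2∆ on top, then WT, then sum1∆, and sir4∆ at the bottom. The mean of 234 ± 22.8 FPKM in sir2∆ was 2.10-fold the WT mean of 111 ± 24.4 FPKM (SD, n = 2), a log2 difference of 1.08. In sir4∆ the mean was 32.6 ± 0.971 FPKM, 3.42-fold lower than WT, with a log2 difference of -1.73. In sum1∆ it was 59.0 ± 1.73 FPKM, 1.89-fold lower than WT. The sir2∆ mean was 7.19-fold the sir4∆ mean, the widest span between strains lacking a Sir protein among the 5 genes. Because the WT libraries were far apart, the sir2∆ difference was 0.86 when WT replicate 2 was left out and 1.30 when WT replicate 1 was. The sum1∆ difference was -1.11 and -0.67 in the same order.

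**Figure D2:**
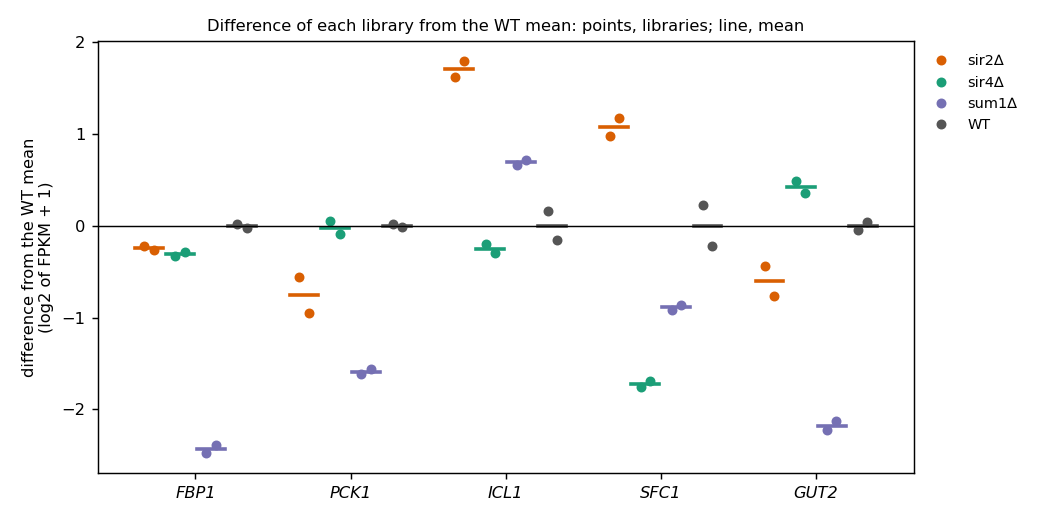
Difference of each library from the WT mean, on the log2(FPKM + 1) scale, for the 5 genes. Points are libraries and lines are strain means. FBP1, PCK1 and GUT2 reach their lowest means in sum1∆, at -2.43, -1.59 and -2.18, while ICL1 and SFC1 stand above WT in sir2∆, at 1.71 and 1.08.

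FBP1, PCK1 and GUT2, chosen on these same values, had their lowest level in sum1∆ and ran close together across the strains, while ICL1 and SFC1 had the same extremes, sir2∆ and sir4∆. In sum1∆ ICL1 stood at 0.69 and SFC1 at -0.89. The likeness of a pair of genes was measured as the root mean square difference of their log2(FPKM + 1) values over the 8 libraries, each gene centred on its own mean, so that 0 would be the same profile. The distances among FBP1, PCK1 and GUT2 were 0.38 to 0.50, and ICL1 and SFC1 were 0.65 apart. Each of these 2 lay 1.19 to 1.51 from FBP1, PCK1 and GUT2. The median distance to all genes tested was 0.99 for FBP1, 0.67 for PCK1, 1.00 for GUT2, 0.79 for ICL1 and 1.07 for SFC1. The comparisons of sir2∆, sir4∆ and sum1∆ with WT share the same WT libraries, so the 3 differences of a gene are not independent of each other. With depth class as a term in the fit, the sum1∆ differences were -2.07 for GUT2, -1.5 for PCK1 and -1.05 for SFC1, and the sir4∆ difference of SFC1 was -1.56.

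Some genes elsewhere were closer to a member than the members were to each other. The genes nearest to GUT2 were GPH1, which encodes glycogen phosphorylase, at 0.0936, and KLLA0B14883g and KLLA0F18260g, which have no symbol, at 0.112 and 0.130. GPH1 had 104 and 88.6 FPKM in sir2∆, 185 and 158 FPKM in sir4∆, 31.1 and 30.0 FPKM in sum1∆, and 126 and 143 FPKM in WT. It thus ran in the same order of strains as GUT2, with a sum1∆ difference of -2.10. Such likeness follows from picking the nearest genes by these same values. PCK1 lay nearest to KLLA0C01672g at 0.108, to the galactokinase gene GAL1 at 0.117 and to KLLA0B14839g at 0.121. GAL1 differed from WT by -0.51 in sir2∆, 0.18 in sir4∆ and -1.34 in sum1∆. FBP1 had no neighbour closer than 0.236 (KLLA0A10439g), and the next were KLLA0F26818g at 0.261 and KLLA0E06755g at 0.276. ICL1 lay nearest to KLLA0F05335g (0.182), KLLA0E24993g (0.220) and KLLA0D08646g (0.235). The 3 nearest to SFC1 were KLLA0E16259g (0.201), KLLA0D03278g (0.238) and SUT1 (0.309), which encodes a transcription factor of sterol uptake in S. cerevisiae.

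In the gene order of the reference annotation, GUT2 and PCK1 lie close together near an end of chromosome A, as genes 14 and 17 of 502. FBP1 is gene 46 of 1089 on chromosome E and SFC1 gene 140 of 1199 on chromosome F, while ICL1 lies inside chromosome C as gene 349 of 840. The coding regions of the neighbours examined did not overlap those of the 5 genes, which bears on the counts because the kit did not keep the strand. Genes outside the 5 were tested with limma over 5022 genes, and a gene was called at an adjusted p below 0.05 with a log2 fold change of at least 1 in size. Of the 18 genes within 2 places of a member, 1 was called in sir2∆ against WT, where 5.62% of all genes were called, and 3 in sum1∆, where 10.6% were. In sir4∆ 1.35% of all genes were called, and limma called 0 of the 18, whose differences ran from -0.91 to 0.76.

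IMP21 and RRD1, the pair between GUT2 and PCK1, were at -0.55 and -0.70 in sir2∆, -0.15 and -0.07 in sir4∆, and -0.73 and -0.89 in sum1∆. Neither passed the fold threshold, while the genes on both sides of them stood at -2.18 and -1.59 in sum1∆. UBP7, on the outer side of GUT2, was at 0.02 in sum1∆, and KLLA0A00506g, past PCK1, at -0.35. KLLA0F03234g, next to SFC1, rose in both sir2∆ (1.06) and sum1∆ (1.26), whereas SFC1 itself was lower in sum1∆ than in WT. KLLA0C08063g, next to ICL1, fell in sum1∆ (-1.41), where ICL1 stood above WT.

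**Figure D3:**
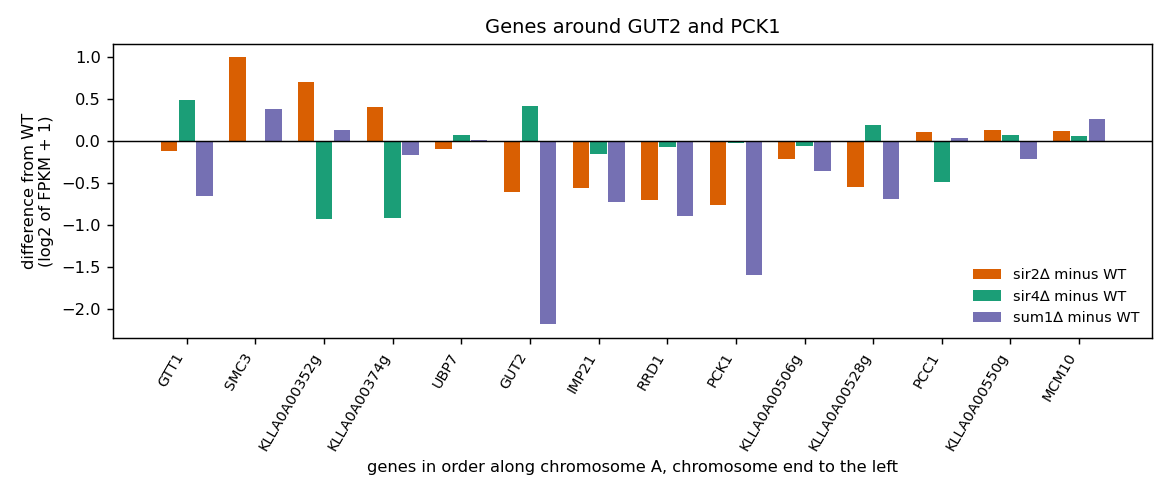
Differences of the sir2∆, sir4∆ and sum1∆ means from the WT mean, on the log2(FPKM + 1) scale, for the genes around GUT2 and PCK1 in their order along chromosome A. The sum1∆ bars of GUT2 (-2.18) and PCK1 (-1.59) reach lower than those of IMP21 (-0.73) and RRD1 (-0.89) between them.

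Around these members, 86 other genes of carbon use were found among 11 lists of enzymes, carriers and regulators. In sum1∆, 4 of the 86 rose and 14 fell, 4.65% and 16.3%, against 7.73% and 2.87% of all genes tested, and their median log2 fold change was -0.33 against -0.01 for all genes. In sir2∆, 7 rose and 1 fell, 8.14% and 1.16%, against 4.9% and 0.717% of all genes, with a median of -0.06. In sir4∆, 4 of them fell, 4.65% against 0.737% of all genes. The number that rose there by limma was 0, where 0.617% of all genes rose, with 28 of the 86 higher and 30 lower at an unadjusted p below 0.05, against 22.0% and 25.8% of all genes. At a limma adjusted p below 0.05 and any fold, 25 of the 86 were higher and 27 lower, against 16.8% and 20.9% of all genes. The median of the 86 in sir4∆ was 0.02.

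**Figure D4:**
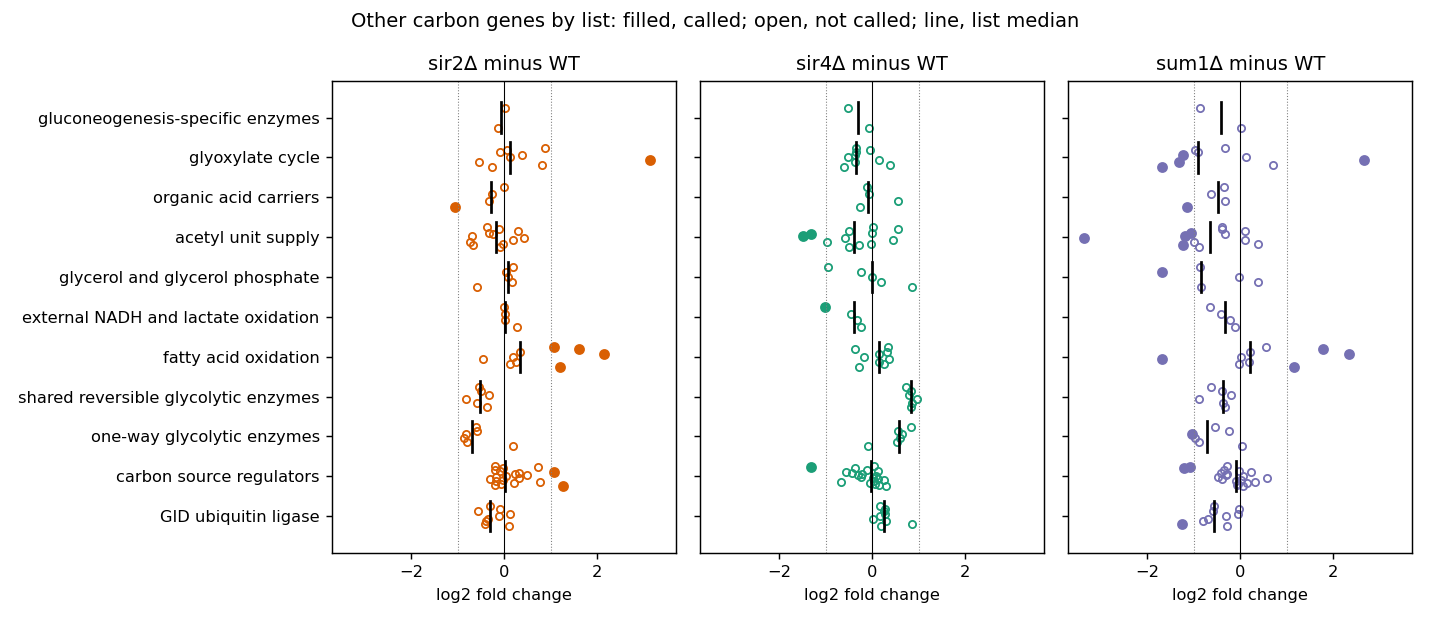
Log2 fold changes of 86 carbon-use genes other than the 5 members, by list, in sir2∆, sir4∆ and sum1∆ against WT. Filled points passed both thresholds, open points did not, black lines are list medians and dotted lines mark a log2 fold change of 1 in either direction. In sum1∆ the medians of the glyoxylate, glycerol, one-way glycolytic and acetyl supply lists lie at -0.90, -0.85, -0.71 and -0.65. The highest median there, of fatty acid oxidation, lies at 0.21.

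GUT1 encodes glycerol kinase, the step before Gut2. Its level was 136 and 113 FPKM in sir2∆, 101 and 103 FPKM in sir4∆, 36.8 and 37.3 FPKM in sum1∆, and 131 and 113 FPKM in WT. It fell in sum1∆ (log2 fold change -1.69, SE 0.10, limma adjusted p = 2.6e-06), the strain with the least GUT2. The sir2∆ and sir4∆ fold changes of GUT1 were 0.03 and -0.25, while GUT2 stood at -0.60 and 0.42. Of the 5 glycerol genes beside GUT2, GUT1 was the 1 called in sum1∆, where 10.6% of all genes were. The proton symporter STL1 and the dihydroxyacetone kinase DAK1 were at -0.87 and -0.85, while GUP1 and FPS1 were at -0.03 and 0.37. DAK1, like GUT2, was above WT in sir4∆ (0.86) and below it in sir2∆ (-0.59), neither past the fold threshold.

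Beside FBP1 and PCK1, the gluconeogenic list held MDH2, the cytosolic malate dehydrogenase, and MAE1, the malic enzyme. MDH2 had 180 and 188 FPKM in sir2∆, 141 and 113 FPKM in sir4∆, 96.9 and 102 FPKM in sum1∆, and 186 and 176 FPKM in WT. Its fold changes of 0.02, -0.52 and -0.86 did not pass the fold threshold, though its sum1∆ libraries too were the lowest of the 8. MDH2 in sum1∆ had a limma adjusted p of 0.00012. MAE1 did not fall there, with 287 and 290 FPKM in sum1∆ against 289 and 281 FPKM in WT. Its fold changes were -0.15 in sir2∆, -0.08 in sir4∆ and 0.02 in sum1∆.

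The partner of ICL1 in the glyoxylate cycle is MLS1, malate synthase, which had 30.2 and 30.9 FPKM in sir2∆, 12.0 and 12.9 FPKM in sir4∆, 12.3 and 12.8 FPKM in sum1∆, and 16.8 and 15.5 FPKM in WT. MLS1 was highest in sir2∆ like ICL1, with a fold change of 0.88 against WT that missed the fold threshold (SE 0.07, limma adjusted p = 4.4e-05). Against sum1∆ and sir4∆ the difference was larger: its log2 fold change was -1.21 in sum1∆ over sir2∆, where 1.73% of all genes were called lower, and 1.23 in sir2∆ over sir4∆, where 8.74% were called higher. MLS1 was called in both. In sum1∆ MLS1 stood at -0.33 against WT and ICL1 at 0.69.

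Of the 9 glyoxylate and citrate-step genes beside ICL1, 1 rose and 3 fell in sum1∆, where 7.73% of all genes rose and 2.87% fell. CIT3, a mitochondrial citrate and methylcitrate synthase in S. cerevisiae, had 11.5 and 9.81 FPKM in sir2∆, 0.439 and 0.470 FPKM in sir4∆, 7.50 and 7.19 FPKM in sum1∆, and 0.431 and 0.217 FPKM in WT. Only sir2∆ and sum1∆ carried CIT3 above 1 FPKM, and it rose in both (3.14 and 2.66), over WT values that rest on 11 and 3 estimated reads. At such low values the fold change depends on the pseudocount, and in sir2∆ it was 4.71 with a pseudocount of 0.1 and 1.55 with 5. The genes that fell in sum1∆ were ACO1, aconitase (-1.69, 384 and 399 FPKM against 1362 and 1173 FPKM in WT), CIT2, a peroxisomal citrate synthase in S. cerevisiae (-1.31), and IDP3, an isocitrate dehydrogenase (-1.24).

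Among genes that supply acetyl units, 4 of 12 fell in sum1∆, against 2.87% of all genes. ALD4, a mitochondrial aldehyde dehydrogenase, had 6.51 and 5.94 FPKM in sum1∆ against 75.0 and 70.9 FPKM in WT (-3.36, SE 0.11, limma adjusted p = 8.5e-08). ACS1, an acetyl-CoA synthetase, had 12.9 and 12.7 FPKM in sum1∆ against 33.1 and 29.8 FPKM in WT (-1.24). ALD5 (-1.18) and the carnitine acetyltransferase CAT2 (-1.07) also fell. In sir4∆, where SFC1 was lowest, ALD5 (-1.48) and ALD6 (-1.31) fell, 2 of the 12 against 0.737% of all genes, as did NDI1, the internal NADH dehydrogenase (-1.02). The NDI1 call was lost without WT replicate 1 (-0.90) or sir4∆ replicate 1 (-0.94). Of the 4 other organic acid carriers, ATO3, an ammonium exporter of the acetate permease family in S. cerevisiae, fell in sir2∆ (-1.06) and in sum1∆ (-1.14), so in sir2∆ it went the opposite way to the values of SFC1.

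Of 20 carbon source regulators, 2 fell in sum1∆, STD1 and SUT1, against 2.87% of all genes. STD1, which acts in glucose sensing in S. cerevisiae, had 237 and 207 FPKM in sir2∆, 175 and 172 FPKM in sir4∆, 99.7 and 94.8 FPKM in sum1∆, and 246 and 208 FPKM in WT. It was lowest in sum1∆ (-1.21, SE 0.09, limma adjusted p = 1.2e-05) and was called lower there than in sir2∆ too (-1.18). Of the activators named above, the transcripts stood nearer to WT in sum1∆, with log2 fold changes of -0.08 for CAT8 (SE 0.07), 0.22 for SIP4 (SE 0.09) and 0.05 for ADR1 (SE 0.11). CAT8 had 18.3 and 19.4 FPKM in sir2∆, 24.2 and 24.4 FPKM in sir4∆, 21.1 and 20.1 FPKM in sum1∆, and 20.9 and 22.6 FPKM in WT. SIP4 was 14.9 and 15.2 FPKM in sir2∆, 4.0 and 4.35 FPKM in sir4∆, 7.99 and 7.90 FPKM in sum1∆, and 6.92 and 6.45 FPKM in WT. SIP4 rose in sir2∆ (1.06, SE 0.09, limma adjusted p = 4.7e-05), and its strains ran from sir2∆ through sum1∆ and WT to sir4∆, the order of ICL1. That call was lost with a pseudocount of 5 or quantile normalization, which gave 0.52 in the lower case.

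ADR1 had 18.5 and 18.6 FPKM in sir2∆, 9.77 and 8.28 FPKM in sir4∆, 7.66 and 7.15 FPKM in sum1∆, and 7.69 and 6.55 FPKM in WT. It rose in sir2∆ (1.27, SE 0.11, limma adjusted p = 4.7e-05) and was called lower in sum1∆ than in sir2∆ (-1.22). This rise was also lost with a pseudocount of 5 or quantile normalization, at 0.82 in the lower case. SNF1, the kinase, stood at -0.09, 0.13 and -0.02 in sir2∆, sir4∆ and sum1∆. MIG1, the glucose repressor, stood at 0.49, -0.31 and -0.32, and HAP4, a subunit of the activator of respiratory genes, at -0.17, -0.24 and -0.48. SUT1 fell in sir4∆ (-1.31) and sum1∆ (-1.07), and its place among the genes nearest to SFC1 rests on these same values. Both SUT1 calls were lost without WT replicate 1, at -0.92 and -0.67.

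Other sets of genes moved with the members, and their part in these values was not tested. The summed level of 13 stress and late-growth genes was 8342 to 10221 FPKM in sir2∆, 24438 to 28293 FPKM in sir4∆, 2687 to 2947 FPKM in sum1∆, and 7258 to 8894 FPKM in WT. It was highest and lowest in the same strains as GUT2, but in sir2∆ it overlapped the WT range, while GUT2 lay below WT. HSP12 alone held 6935 and 5406 FPKM of that sum in sir2∆, and 21638 and 18592 FPKM in sir4∆. Its level was 846 and 940 FPKM in sum1∆, and 4045 and 5069 FPKM in WT. In sum1∆ 8 of the 13 fell and 1 rose, where 2.87% of all genes fell and 7.73% rose, and in sir4∆ 4 rose, against 0.617% of all genes. GPH1 is on that list, but it was picked as the gene nearest to GUT2 in these same libraries, so its likeness to GUT2 follows from that choice. The summed level of 13 sporulation genes was 464 to 485 FPKM in sir2∆, 62.2 to 64.8 FPKM in sir4∆, 888 to 909 FPKM in sum1∆, and 69.4 to 69.9 FPKM in WT. In sir2∆ 12 of these rose, against 4.9% of all genes, and in sum1∆ 13, against 7.73%. They were thus high in the strains where ICL1 lay above WT. Between those strains the order differed, with the sum higher in sum1∆ and ICL1 higher in sir2∆. At the same shares over all genes, 3 of 6 a-cell genes rose in each of sir2∆ and sum1∆, and the sum of the 6 was 274 to 318 FPKM in sir2∆, 35.1 to 35.2 FPKM in sir4∆, 330 to 349 FPKM in sum1∆, and 30.5 to 34.0 FPKM in WT. The 3 alpha-cell genes summed to 36.7 to 37.7 FPKM in sir2∆, 51.2 to 53.5 FPKM in sir4∆, 44.7 to 48.7 FPKM in sum1∆, and 36.8 to 38.7 FPKM in WT. AGA2 alone held 218 and 262 FPKM of the a-cell sum in sir2∆, and 271 and 290 FPKM in sum1∆. No gene of these 4 lists was below 0.1 FPKM in both libraries of a strain.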

How the data were processed

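The authors deposited 1 FPKM table per library, for which the submitters' processing notes name TopHat2 2.0.10 and Cuffnorm 2.2.1. Which genome build and annotation they used is not given in the sources used here. Per the labels' protocols, the kit did not keep the strand and reads were single-end, so reads from overlapping genes on opposite strands cannot be told apart. All 5076 identifiers matched locus tags of the RefSeq table of assembly ASM251v1, which gave 3959 symbols. Its start and end positions gave the gene order and the check for overlap, and its coding lengths served the read estimates. Log2(FPKM + 1) values of 5022 genes, those averaging 1 FPKM or more over the 8 libraries, were fitted with limma 3.58.1 (R 4.3.3, intensity trend, all 4 strains sharing 1 spread with 4 residual degrees of freedom) with Benjamini-Hochberg adjustment. Fold changes on this scale understate those of low genes. Python 3.11.15 with pandas 2.3.3 and numpy 2.4.6 did the rest, and the fit was tested on simulated data. Read numbers were estimated from steps between low values, taking fragments of mean 200 and SD 80 bases and coding length less the stop codon. Of the low values, 10 to 197 per library, 95.7% to 100% fell within 0.1 of a whole read. The step was chosen to fit such values, so this share is not an independent check. These fragment sizes are an assumption, so depths are estimates.

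The 5 members, the carbon and marker lists and the tests were chosen with earlier results of these data known. Besides the members, the genes named were list genes called in any mutant, fixed regulators and pathway partners, the 3 genes most alike to each member, its neighbours within 2 places, and genes marking the deletions. STL1, DAK1, GUP1, FPS1, MAE1, HSP12 and AGA2 were named after their values were seen. Alternatives were other pseudocounts, filters, scalings and fits, a depth term, limma's treat, a replicate block, and leaving out each library. Counting error covers reads only.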

Additional observations from a re-analysis of the deposited data

How the results depend on the processing

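Alternatives that change a difference of strain means at all gave 129 values for the 5 genes. Of these, 115 moved by no more than 1 SD between libraries. With 2 libraries per strain, leaving 1 out cannot move a difference by more than that SD, so those values count as unmoved by construction. The 14 that moved came from the pseudocount, quantile normalization and the depth term. The sign changed in 1 case: PCK1 in sir4∆, 0.06 without sir4∆ replicate 2. Counts of genes called in sir2∆, sir4∆ and sum1∆ against WT were 282, 68 and 532. Limma's treat, stricter by construction, called 159, 0 and 264, with 29 in sir4∆ at an unadjusted p below 0.05, and 48, 558 and 274 for sum1∆ against sir2∆, sum1∆ against sir4∆ and sir2∆ against sir4∆. Treat called 3, 0 and 9 carbon genes in sir2∆, sir4∆ and sum1∆, with 2 in sir4∆ at an unadjusted p below 0.05. In sir2∆, a pseudocount of 5 left 4 carbon genes called and quantile normalization 5. A depth term left 45 genes called in sir4∆. Leaving out a library gave 37 (without WT replicate 1) to 132 (without WT replicate 2) genes in sir4∆, 113 without sir4∆ replicate 2, and 2 to 9 carbon genes, at the same WT replicates. The cause was not tested. Rises made up 87.2% of calls in sir2∆ and 72.9% in sum1∆, and 73.0% and 61.7% after quantile normalization. Replicate numbers did not pair the libraries (correlations from -0.25 to 0.03), and the replicate block called 281, 68 and 532 genes. Swapping the WT numbers in that block, added after seeing the data, gave 282, 68 and 532. Over all alternatives, carbon gene calls were lost in 37 cases and reversed in 0. Other calls lost included SPS19 in sir2∆ (0.97) and ALD5 in sum1∆ (-0.93) without WT replicate 1, CAT2 in sum1∆ (-0.90, pseudocount of 5), and NDI1 in sir4∆ (-0.93, depth term).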

Other observations

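Fatty acid oxidation feeds acetyl units to the glyoxylate cycle, and 4 of 9 of its genes rose in sir2∆ and 3 in sum1∆, against 4.9% and 7.73% of all genes. POX1, acyl-CoA oxidase, had 39.6 and 37.3 FPKM in sir2∆, 8.52 and 9.31 FPKM in sir4∆, 44.0 and 45.3 FPKM in sum1∆, and 7.74 and 8.24 FPKM in WT. It rose in sir2∆ (2.13) and sum1∆ (2.34), unlike SFC1, which was above WT in sir2∆ and below it in sum1∆. ECI1 (1.20 and 1.16) and the peroxisomal transporter subunit PXA2 (1.61 and 1.77) also rose in both. Quantile normalization took both PXA2 calls, at 0.43 in sir2∆ and 0.83 in sum1∆. SPS19 rose in sir2∆ (1.07), and PEX11, a peroxisome proliferation factor, fell in sum1∆ (-1.69).

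The 6 enzymes that glycolysis shares with gluconeogenesis had a median log2 fold change of -0.53 in sir2∆, 0.83 in sir4∆ and -0.38 in sum1∆. Their summed level was 26104 to 29702 FPKM in sir2∆, 65094 to 72262 FPKM in sir4∆, 28339 to 30740 FPKM in sum1∆, and 35271 to 42834 FPKM in WT. Against WT limma called 0 of the 6 in each mutant. At an unadjusted p below 0.05, 6 were lower in sir2∆, 6 higher in sir4∆ and 5 lower in sum1∆. Of all genes, 31.7%, 22.0% and 34.1% were. The same numbers of these enzymes passed a limma adjusted p below 0.05, against 29.2%, 16.8% and 32.6% of all genes. They missed only the fold threshold. In sir2∆ against sir4∆ all 6 were called lower, where 3.23% of all genes were, and in sum1∆ against sir4∆ 5, where 4.9% were. PFK26, which makes the fructose 2,6-bisphosphate that inhibits Fbp1, fell in sum1∆ (-1.04). That call was lost without WT replicate 2 (-0.85), with a depth term (-0.93), with a pseudocount of 5 and under treat. The GID genes, whose ubiquitin ligase degrades Fbp1 and Pck1 in S. cerevisiae when glucose returns, had medians over 9 genes of -0.32 in sir2∆, 0.25 in sir4∆ and -0.57 in sum1∆. Of the 9, 1 fell in sum1∆, GID11 (-1.25), where 2.87% of all genes fell.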
